A study of Mus musculus with 16 samples.

Results

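The knockout change of m6A enrichment in the cold was followed for 5862 of the 17883 genes in the deposited expression matrix, those with 5 RPKM or more in all 4 input RNA libraries from cold-exposed mice. RPKM is a read count scaled by the length of the gene model and by the depth of the library. For each gene, enrichment is the log2 ratio of RPKM + 1 in an m6A library over RPKM + 1 in the input library of the same replicate number, and the change is the mean ratio of the knockout pairs minus that of the controls. For the m6A libraries, RNA was pulled down with an anti-m6A antibody, where m6A is N6-methyladenosine, and the input libraries hold the RNA before this step. The mice were C57BL/6, 8 weeks old. Controls (WT) carried METTL3 flox/flox alleles without Cre, and knockouts (cKO) carried METTL3 flox/flox with Adipoq-Cre +/-, in which Cre is driven by the adiponectin promoter of adipocytes, so that the other cells of the tissue keep the gene. Cold mice were housed singly at 4 °C for 7 days, and WT mice at room temperature (RT) were untreated. The labels name the tissue as adipose tissue and give no depot. Each of the 6 groups used (input and m6A of WT RT, WT cold and cKO cold) has 2 libraries. Whether the paired libraries of a group came from different animals is not stated, and each p-value here covers the library-to-library spread, which may be technical.

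N6-methyladenosine is the most abundant internal modification of mRNA. METTL3 is the catalytic subunit of the nuclear complex that writes it, together with METTL14 and adaptors such as WTAP and RBM15, and proteins with a YTH domain bind the mark and alter the stability or translation of the mRNA. White adipose tissue responds to cold by forming beige adipocytes, which burn fuel for heat through the uncoupling protein UCP1.

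The 12 input and m6A libraries held between 3895031 and 8673393 reads in genes, recovered from the steps of the RPKM values. Adipoq, the adipocyte hormone adiponectin, stood between 471 and 724 RPKM in all 6 inputs, so this adipocyte marker was present throughout. Mettl3 itself was under the 5 RPKM floor. Its input read 5.24 and 3.66 RPKM in WT cold against 3.83 and 1.90 in cKO cold, and its m6A libraries 4.23 and 2.69 in WT cold against 5.37 and 2.33 in cKO cold. These values overlap between the genotypes, and the files do not say whether the counted reads include the floxed exons, so they do not check the genotype. The WT RT inputs carried B cell and T cell mRNAs that the cold inputs nearly lacked (the T and B cell list summed to 941 and 864 RPKM in WT RT and to between 2.2 and 22.4 in the cold), so RT values are given only as a reference for enrichment.

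Across the members, relative enrichment was lower in the knockout on balance, by a small amount. Each library was scaled to its own depth, so the ratio does not measure the total amount of m6A. A loss shared by all mRNAs would not show in it. The median pair ratio was -0.36 and -0.28 in WT cold against -0.56 and -0.54 in cKO cold, with -0.49 and -0.46 in WT RT. The median change was -0.17, the middle of the distribution ran from -0.37 to 0.01 (quartiles), and the whole from -1.88 to 1.14. The change was below 0 for 4299 members (73.3%). In 2567 members both cKO pairs lay below both WT cold pairs (43.8%, against 35.4% of the 13062 genes tested), and in 490 both lay above (8.36%, against 11.0%). No member passed the test in either direction (limma, Benjamini-Hochberg adjusted p under 0.05 over 13062 genes). At an unadjusted p under 0.05, 633 members were lower (10.8%) and 46 higher (0.785%), where all genes tested gave 8.82% and 1.22%. A second tool, limma-voom on the recovered reads, also made 0 calls, with 629 lower and 31 higher at unadjusted p. Same-numbered input and m6A libraries varied together, and a fit on the pair ratios (the replicate block) also made 0 calls. It put 1010 members lower (17.2%, against 15.0% of all genes tested) and 77 higher (1.31%, against 3.01%) at unadjusted p.

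The size of the general shift depended on how the libraries were scaled. Mitochondrial mRNAs, with Lars2 and Gm20594, took 22.85% and 23.64% of reads in the WT cold input and 15.14% and 15.15% in the cKO cold input, against 35% and 33.42% in the WT cold m6A libraries and 32.2% and 30.79% in cKO. These shares pool the whole set. The mRNAs encoded by mitochondrial DNA were by themselves lower after the pulldown, with median ratios between -0.52 and -0.24 over the cold pairs. Their summed RPKM in WT cold fell from 161883 and 144551 in input to 123318 and 117524 after it. For the knockout the sums went from 65386 and 69195 to 55943 and 62941. The parts of Lars2 and Gm20594 in the higher m6A share were not tested. Scaling without the pooled set gave a median change of -0.09, with 461 members lower and 90 higher at unadjusted p. Median-ratio scaling brings the libraries of each kind to a shared level, so its median change of 0.00 was set by design and is no measure of the shift. It gave 341 lower and 167 higher. The excess of lower values among members with a low p was thus smaller but kept its direction. Changes of lists are therefore also given relative to the median of all members.

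The members with the lowest adjusted p lay lower in the knockout in all 17 cases under an adjusted p of 0.1 (limma, 0.0672 to 0.0885), and they included genes of adipocyte identity and lipid handling. With the replicate block 215 members were under 0.1, of which 213 were lower. Both counts under 0.1 were made over members only, so no share over all genes tested stands beside them. Adipoq (chromosome 16, 23146536 to 23157968 in GRCm38) read 498 and 471 RPKM in the WT cold input and 621 and 724 in the cKO cold input. In the m6A libraries it read 794 and 790 RPKM in WT cold against 519 and 482 in cKO cold. The order of the genotypes was opposite in the input and m6A libraries, with no overlap in either. The change was -1.13 ± 0.18 (SE; 2 pairs per genotype; limma adjusted p = 0.0885), and the WT RT ratios of 0.61 and 0.78 were like the WT cold ratios of 0.67 and 0.74.

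Klb encodes beta-Klotho, the co-receptor for FGF21 (chromosome 5, 65348411 to 65386957). Its input read 32.8 and 41.5 RPKM in WT cold against 48.9 and 65.6 in cKO cold. Its m6A libraries read 49.5 and 62.3 RPKM in WT cold against 21.0 and 24.2 in cKO cold. The genotypes did not overlap, and again the knockout was higher in input and lower after the pulldown (change -1.87 ± 0.29, limma adjusted p = 0.0885). Fitm2, which serves the formation of lipid droplets (chromosome 2, 163468703 to 163472629), read 46.3 and 61.1 RPKM in the WT cold input and 57.7 and 61.5 in cKO cold. After the pulldown it read 50.8 and 62.0 RPKM in WT cold against 24.8 and 23.9 in cKO cold. Here the inputs overlapped and the m6A libraries did not (change -1.34 ± 0.22, limma adjusted p = 0.0885).

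Cpt2, the carnitine palmitoyltransferase of the inner mitochondrial membrane (chromosome 4, 107903982 to 107923589), also had overlapping inputs, at 132 and 103 RPKM in WT cold against 97.5 and 108 in cKO cold. Its m6A values were 107 and 91.8 RPKM in WT cold against 37.7 and 29.9 in cKO cold. The change was -1.35 ± 0.23 (limma adjusted p = 0.0885), carried by the m6A libraries. Aoc3, an amine oxidase of the adipocyte surface, read 212 and 192 RPKM in the WT cold input and 306 and 307 in cKO cold. Its m6A values were 219 and 204 RPKM in WT cold against 165 and 163 in cKO cold. Neither kind of library overlapped between the genotypes (change -0.97 ± 0.16, limma adjusted p = 0.0885).

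The lowest adjusted p belonged to Rab9, a small GTPase of late endosome traffic (chromosome X, 166457251 to 166479867). Its input read 25.4 and 27.2 RPKM in WT cold against 50.4 and 51.8 in cKO cold. The m6A libraries held 28.1 and 31.3 RPKM in WT cold against 23.5 and 21.5 in cKO cold. The input difference was the larger of the 2 parts of its change of -1.32 ± 0.16 (limma adjusted p = 0.0672). Rab9 passed the test without a filter on low values (limma adjusted p = 0.0478) and with a pseudocount of 5 (0.0452), while its adjusted p ran up to 0.387 over the other alternatives. Lrrc8d, a subunit of the volume-regulated anion channel, read 25.2 and 24.2 RPKM in the WT cold input and 51.5 and 61.9 in cKO cold. Its m6A values of 43.4 and 37.0 RPKM in WT cold against 35.2 and 38.7 in cKO cold overlapped, so the change of -1.28 ± 0.19 (limma adjusted p = 0.0885) came mostly from the input.

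Lipt1 and Btd, which act on the protein cofactors lipoate and biotin, had inputs that varied in WT cold. Lipt1 read 13.7 and 8.32 RPKM in the WT cold input and 14.8 and 17.1 in cKO cold, and its m6A libraries 22.7 and 19.3 in WT cold against 7.32 and 7.87 in cKO cold. Its change of -1.88 ± 0.29 was the lowest of all members. Btd read 14.2 and 8.02 RPKM in the WT cold input and 22.3 and 26.3 in cKO cold, and its m6A libraries 27.8 and 24.4 in WT cold against 15.6 and 15.0 in cKO cold, for a change of -1.84 ± 0.30. In both genes the WT cold inputs lay farther apart than the cKO ones. Both passed the test when the first WT cold input was left out (limma adjusted p = 0.0272 for Lipt1 and 0.0193 for Btd), but not otherwise.

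The other 8 of the 17 were Vkorc1l1, Tmem115, AI837181, Serpina3n, Abcd2, H6pd, Mfsd5 and Tmem223. Abcd2, a peroxisomal transporter of very long chain fatty acids, had a change of -1.26 ± 0.21. H6pd, which makes NADPH in the endoplasmic reticulum, had a change of -1.11 ± 0.19, and its m6A libraries read 90.9 and 94.0 RPKM in WT cold against 57.1 and 50.1 in cKO cold. AI837181 read 8.75 and 9.70 RPKM in the WT cold input and 31.6 and 28.9 in cKO cold, and was higher in the knockout after the pulldown too, at 21.3 and 24.1 against 34.8 and 33.1. The m6A difference was smaller than that of the input, for a change of -1.05 ± 0.17.

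**Figure D1:**
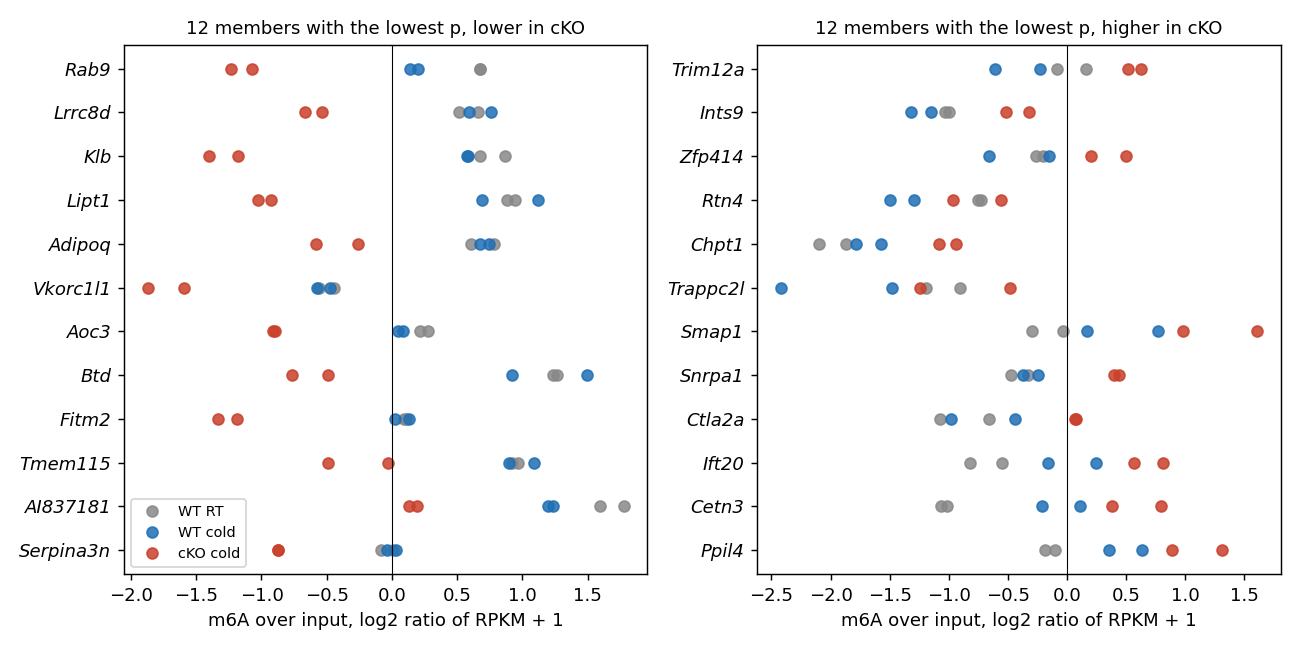
Ratio of m6A over input (log2 of RPKM + 1) for each pair of libraries, for the 12 members with the lowest p that were lower in cKO (left) and the 12 that were higher (right). Each point is 1 pair, 2 per group, with WT RT in grey, WT cold in blue and cKO cold in red. Adipoq stood at 0.67 and 0.74 in WT cold, right of both its cKO pairs, and the 24 genes were chosen for this difference.

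Fewer members lay higher in the knockout, and their adjusted p values began at 0.136. Trim12a, of the TRIM family of antiviral ubiquitin ligases, read 7.29 and 7.86 RPKM in the WT cold input and 9.25 and 7.95 in cKO cold. In its m6A libraries it read 6.09 and 4.82 RPKM in WT cold against 13.7 and 12.8 in cKO cold. The inputs lay close together and the m6A libraries did not overlap (change 0.99 ± 0.22, limma adjusted p = 0.136), but the gene has close paralogs next to it that can share reads. Ints9, an Integrator subunit, had a change of 0.82 ± 0.23 (limma adjusted p = 0.244). Chpt1, a choline phosphotransferase of phosphatidylcholine synthesis, read 136 and 117 RPKM in the WT cold input and 118 and 152 in cKO cold. Its m6A libraries read 38.8 and 38.8 RPKM in WT cold against 61.1 and 71.3 in cKO cold, for a change of 0.67 ± 0.21 (limma adjusted p = 0.278). Zfp414 (0.76 ± 0.23), Rtn4 (0.64 ± 0.20), Trappc2l (1.09 ± 0.36), Smap1 (0.82 ± 0.28), Snrpa1 (0.73 ± 0.25), Ctla2a (0.78 ± 0.26), Ift20 (0.65 ± 0.22), Cetn3 (0.64 ± 0.22) and Ppil4 (0.61 ± 0.21) made up the rest of the 12. The 46 members that were higher at unadjusted p had a median gene model of 1661 bases, against 2918 over all members.

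**Figure D2:**
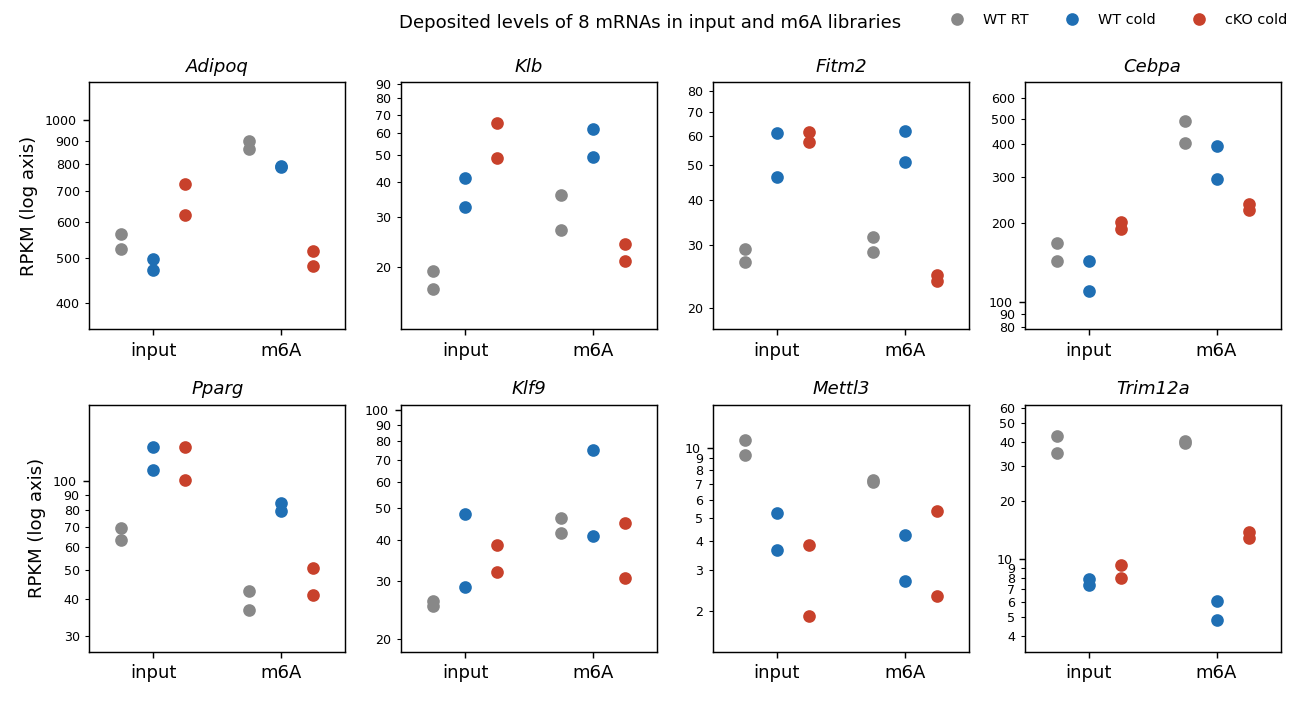
Levels of 8 genes in RPKM on a log axis, 1 point per library (6 input, 6 m6A), with WT RT in grey, WT cold in blue and cKO cold in red. For Adipoq the cKO inputs lie above the WT cold inputs and the cKO m6A libraries below the WT cold ones, while for Klf9 and Mettl3 the genotypes overlap.

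The 633 members that were lower at unadjusted p had at the median a higher input and a lower m6A value. This set was picked by the change itself, so its values are a description. Its median input difference, cKO minus WT cold, was 0.56 on the log2 scale, against 0.32 over all members, and its median m6A difference was -0.17, against 0.15. In 324 of them the input was higher and the m6A value lower in the knockout, in 226 both were higher, and in 83 both were lower. Over the 5862 members these counts were 980, 3508 and 1186. Enrichment above 0 in both WT cold pairs was found in 310 of the 633 and above 0 in both cKO pairs in 87. Of the 5862 members, 1819 and 1315 did so. Among all 5862 members, 348 went from above 0 in both WT cold pairs to below 0 in both cKO pairs, and 24 the other way. Among the 13062 genes tested, these numbers were 700 and 145. In the 46 members that were higher, the median input difference was 0.04 and the median m6A difference 0.61.

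**Figure D3:**
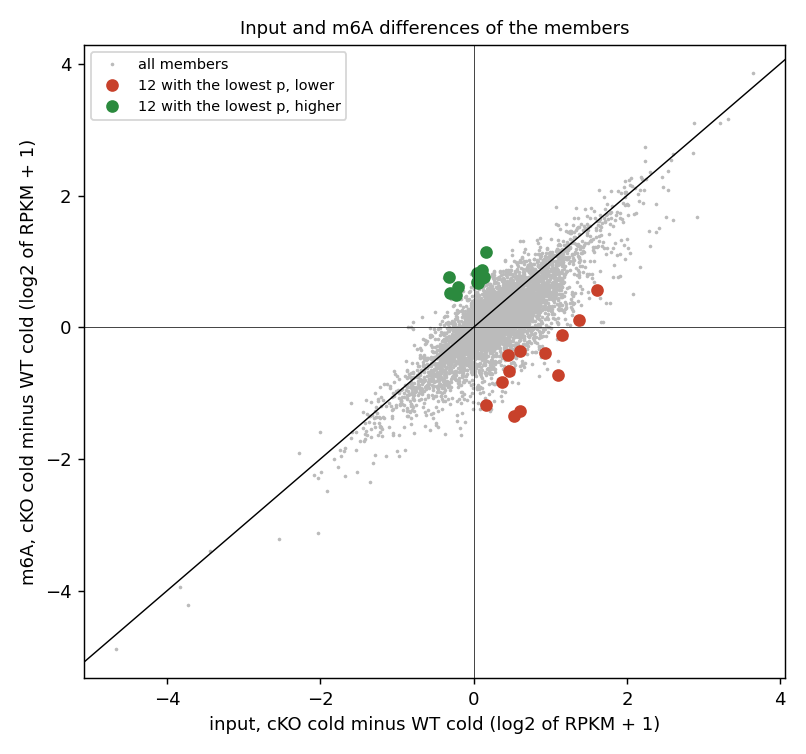
Difference between cKO cold and WT cold in the m6A libraries (vertical axis) against the same in the input (horizontal axis), both as log2 of RPKM + 1, 1 point per member. The line marks equal differences, and genes under it have a lower enrichment in the knockout. The 12 lowest-p genes under the line (red) lie right of 0 on the input axis, as Rab9 and Adipoq do, and the 12 above it (green) lie near 0 on the input axis, as Trim12a does.

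Ribosome footprints, which do not enter the enrichment, were also higher in the knockout at the median. Their median difference between cKO cold and WT cold, on the same log2 scale, was 0.46 in the 633 members and 0.39 over all members. The input gave 0.56 and 0.32, so the 633 stood out less in the footprints than in the input. For Adipoq the footprint libraries read 1478 and 1627 RPKM in WT cold against 1597 and 3355 in cKO cold, overlapping between the genotypes. Footprints were sequenced in libraries of their own.

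Genes of the adipocyte were the list with the largest shift below the other members among those of 20 or more. All 25 genes of the list were members, and their median change was -0.48, which is -0.31 from the member median. Both cKO pairs lay below both WT cold pairs in 20 of 25 and above in 1 (Fabp4), where all members gave 43.8% and 8.36%. An unadjusted p under 0.05, with a lower value, was found in 7 of 25, where 10.8% of members did so. With the replicate block this count was 13, where 17.2% of members did, and none passed the adjusted test in either fit. The median ratio of the list was -0.17 and -0.08 in WT cold, -0.75 and -0.80 in cKO cold, and -0.37 and -0.30 in WT RT, so the knockout pairs were the lowest. The input hardly differed (median -0.06), and the m6A libraries were lower by the most (median -0.56). The distance from the member median ran from -0.42 to -0.21 when single libraries or pairs were left out, and stayed below 0 under every scaling tried.

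Cebpa, the transcription factor that with PPARgamma sets adipocyte identity, read 110 and 143 RPKM in the WT cold input and 201 and 189 in cKO cold. After the pulldown it read 295 and 393 RPKM in WT cold against 225 and 236 in cKO cold. Neither overlapped, and they differed in opposite directions (change -1.19 ± 0.25, limma adjusted p = 0.136). Pparg read 131 and 109 RPKM in the WT cold input and 101 and 131 in cKO cold, which overlap. Its m6A values were 84.7 and 79.4 RPKM in WT cold against 41.0 and 50.7 in cKO cold, which do not (change -0.78 ± 0.23, limma adjusted p = 0.266). The other 5 of the 7 were Adipoq, Acsl1, an acyl-CoA synthetase (-1.02 ± 0.38), Adrb3, the beta-3 adrenergic receptor (-0.99 ± 0.36), Plin4, a lipid droplet coat protein (-0.96 ± 0.41), and Npr3, the natriuretic peptide clearance receptor (-0.92 ± 0.24).

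The adipocyte genes were not alike in level. Npr3 read 29.2 and 29.8 RPKM in the WT cold input and 183 and 144 in cKO cold, and Adrb3 55.7 and 68.9 in WT cold against 25.2 and 22.1 in cKO cold, yet both had a lower enrichment in the knockout. Lep (-1.24 ± 1.80), which encodes leptin, Tshr (-1.21 ± 0.61) and Agpat2 (-1.14 ± 0.69) had changes as low as that of Adipoq and wide errors in the fit without the pairs (limma adjusted p = 0.891, 0.551 and 0.642). In these 3 genes the levels varied between libraries and the pair ratios did not overlap between the genotypes. With the replicate block the errors were 0.24, 0.20 and 0.18, and the limma adjusted p values 0.0907, 0.0773 and 0.0773. Lipe, hormone-sensitive lipase, had a change of -0.61 ± 0.39, and Slc2a4, the insulin-responsive glucose transporter, -0.53 ± 0.28. Fabp4, the fatty acid binding protein of adipocytes and the most abundant of these named mRNAs at 5316 to 7619 RPKM in the cold inputs, was the exception at 0.21 ± 0.23 (limma adjusted p = 0.847).

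Insulin and beta-adrenergic signalling, the hormonal inputs to the adipocyte, also lay below the member median. Of 24 genes 20 were members, with a median change of -0.43 (-0.26 from the member median), and 15 of 20 had both cKO pairs below both WT cold pairs (43.8% over all members) and 0 above. At unadjusted p under 0.05, 4 were lower, against 10.8% of all members, or 9 with the replicate block, against 17.2%. The distance from the member median ran from -0.42 to -0.12 when single libraries or pairs were left out. Foxo1, the transcription factor that insulin signalling restrains, read 10.9 and 13.0 RPKM in the WT cold input and 22.2 and 25.8 in cKO cold. The m6A libraries held 18.7 and 23.5 RPKM in WT cold against 20.93 and 22.04 in cKO cold, which overlap, so that its change of -0.92 ± 0.21 (limma adjusted p = 0.153) came from the input. The insulin receptor gene Insr, at -0.75 ± 0.24, had overlapping inputs and lower m6A values, 21.6 and 30.6 RPKM in WT cold against 15.2 and 16.1 in cKO cold. Pik3ca, a catalytic subunit of phosphoinositide 3-kinase, stood at -0.52 ± 0.19. Adrb3 is in this list and in that of the adipocyte.

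De novo lipogenesis genes had 22 of 23 members, a median change of -0.32 (-0.15 from the member median) and 19 of 22 with both cKO pairs below (43.8% over all members), 0 above. At unadjusted p under 0.05, 0 were lower, against 10.8% of all members, or 6 with the replicate block, against 17.2%. Their levels were lower in both kinds of library in the knockout, with median differences of -0.66 in input and -1.07 in m6A. The distance from the member median ran from -0.29 to 0.04 when single libraries or pairs were left out, so its sign rested on which libraries were used.

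The thermogenic and beige genes had large differences in level and smaller ones in enrichment. Only 16 of 32 passed the floor in the 4 cold inputs, and these had a median input difference of -2.00 and a median m6A difference of -2.22, for a median change of -0.25, which is -0.08 from the member median. That distance ran from -0.34 to 0.09 when single libraries or pairs were left out, so its sign was not stable. Both cKO pairs lay below in 8 of 16, a share near the 43.8% of all members, and above in 2. At unadjusted p 3 were lower, against 10.8% of all members, or 6 with the replicate block, against 17.2%. Ucp1 read 854 and 639 RPKM in the WT cold input and 76.3 and 10.04 in cKO cold, and its m6A libraries 284 and 239 in WT cold against 25.4 and 1.96 in cKO cold. Input and pulldown differed by a like amount, and the change of -0.23 ± 1.53 (limma adjusted p = 0.984) had an error of 0.21 with the replicate block (limma adjusted p = 0.607). The pair ratios were -1.59 and -1.41 in WT cold against -1.55 and -1.90 in cKO cold, which overlap. Because bulk tissue was measured, fewer cells of a type and less RNA per cell cannot be told apart, and a change of enrichment cannot be assigned to one cell type.

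Mitochondrial and oxidative lists stayed near the general median. Fatty acid oxidation had 24 members with a median change of -0.16 and 3 lower at unadjusted p, Cpt2 among them, a share near the 10.8% of all members. The TCA cycle had 26 members with a median of -0.13 and 0 at unadjusted p. Nuclear genes of the respiratory chain and ATP synthase had 76 members with a median of -0.15 and 4 lower at unadjusted p (10.8% over all members). Of these, Uqcrfs1, the Rieske iron-sulfur protein, read 150 and 108 RPKM in the WT cold input and 97.7 and 99.4 in cKO cold, and 34.9 and 32.9 in the WT cold m6A libraries and 10.1 and 10.5 in cKO (change -1.26 ± 0.25, limma adjusted p = 0.133). Related processed copies of such genes can share reads. The mRNAs encoded by mitochondrial DNA went the other way, with 10 members at a median of 0.23, which is 0.40 above the member median. Of these mRNAs 5 had both cKO pairs above and 0 below, where all members gave 8.36% and 43.8%. Their input difference was -1.21 and their m6A difference -1.05. Their median stood 0.30 to 0.45 above that of the members when single libraries or pairs were left out, and 0.19 above it with quantile scaling.

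Macrophage and fibroblast genes, listed as markers of cells other than adipocytes, had higher inputs in the cold knockout. Endothelial genes, also such markers, had a median input difference of 0.43, near the 0.32 of all members. The median changes of enrichment of these 3 lists were near 0. The 5 red blood cell members, at -0.44, and the 2 Schwann cell and nerve members, at -0.18, did not lie near 0. Macrophage genes had 18 of 31 members, with a median change of -0.03, which is 0.14 above the member median. Their input was higher in the knockout by a median of 1.98 and their m6A value by 1.995. The input was higher in 18 of these 18 genes, where it was higher in 4488 of all 5862 members. Both cKO pairs lay below in 3 of 18 and above in 1, where all members gave 43.8% and 8.36%. The summed input RPKM of the whole list was 2743 and 3063 in WT cold against 6287 and 5671 in cKO cold, without overlap. That list has 4 genes that are also in other lists, among them Lpl of the adipocyte list, so its sum is not of macrophages alone. Fibroblast and matrix genes had 28 of 30 members, a median change of -0.04 and median differences of 1.60 in input and 1.5002 in m6A, with 28 of 28 inputs higher. The summed input of the list was 2183 and 1596 RPKM in WT cold against 6414 and 4244 in cKO cold. Endothelial genes had 15 of 16 members, a median change of -0.05 and summed inputs of 461 and 481 RPKM in WT cold against 552 and 606 in cKO cold. At unadjusted p under 0.05, 0 members of these 3 lists were lower and 0 higher (10.8% and 0.785% over all members). With the replicate block 1 fibroblast gene was lower and 1 endothelial gene higher (17.2% and 1.31% over all members).

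These levels moved with the same contrast as the enrichment, and their part in it was not tested. The summed input of the adipocyte list was 20044 and 20296 RPKM in WT cold against 16281 and 20104 in cKO cold, which differed little. T and B cell genes had no member and summed to 4.2 and 2.2 RPKM in WT cold against 22.4 and 13.4 in cKO cold, and of the mast cell and neutrophil genes Ly6g and Mpo were at 0 in all 4 cold inputs. The position of the macrophage list above the member median did not hold when single libraries or pairs were left out (-0.21 to 0.64), nor did that of the fibroblast (-0.15 to 0.46) or endothelial list (-0.02 to 0.35). Lgals3 of the macrophage list stood at -0.34 ± 0.30, Ly6a of the fibroblast list at -0.47 ± 0.23 and Vwf, the von Willebrand factor of endothelium, at -0.46 ± 0.23. Cspg4, of pericytes, was the 1 of 8 smooth muscle and pericyte members with a low unadjusted p (-0.92 ± 0.36, limma adjusted p = 0.400). That share is near the 10.8% of all members.

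**Figure D4:**
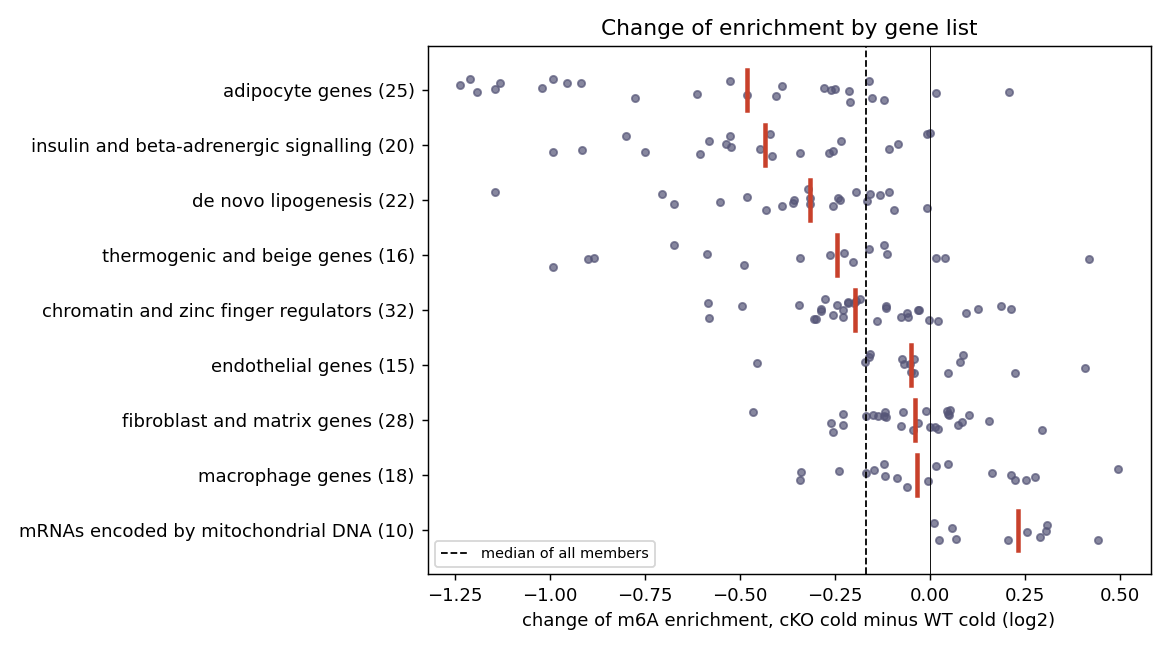
Change of m6A enrichment (log2, cKO cold minus WT cold) of each member of 9 gene lists, 1 point per gene, with the number of members in brackets. Red bars are list medians, the dashed line is the median of all members at -0.17 and the solid line is 0. The adipocyte list has its median at -0.48 and the mitochondrially encoded mRNAs at 0.23.

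Of the genes that write, erase or read m6A, none passed the test. The writers had 7 of 13 members, with a median change of -0.20 and 4 of 7 with both cKO pairs below (43.8% over all members), 0 above. Rbm15, an adaptor of the writer complex, had a high enrichment. In its m6A libraries it read 31.7 and 27.4 RPKM in WT cold against 27.2 and 27.9 in cKO cold. Its inputs were 9.37 and 8.22 RPKM in WT cold against 12.4 and 15.2 in cKO cold. Its input differed and its m6A values overlapped (change -0.68 ± 0.21, limma adjusted p = 0.271). Wtap stood at -0.57 ± 0.23. The erasers and readers had 13 of 17 members and a median of -0.15, and 3 of 13 were lower at unadjusted p (10.8% over all members). These were Ythdf1, Ythdf2 and Ythdf3. Ythdf2, which directs methylated mRNA to decay, read 9.10 and 7.12 RPKM in the WT cold input and 18.2 and 21.9 in cKO cold, and 11.68 and 11.98 in the WT cold m6A libraries and 14.3 and 15.6 in cKO (change -0.90 ± 0.21, limma adjusted p = 0.153). Ythdf1 stood at -0.80 ± 0.20 and Ythdf3 at -0.53 ± 0.23.

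Klf9, the Krüppel-like factor in the title of the series, had overlapping values. Its input read 28.8 and 48.0 RPKM in WT cold against 38.6 and 32.0 in cKO cold, and its m6A libraries 41.2 and 75.3 in WT cold against 45.0 and 30.6 in cKO cold. The pairs varied together, so the ratios were closer than the levels, at 0.50 and 0.64 in WT cold against 0.22 and -0.06 in cKO cold. The ratios did not overlap, and the change was -0.50 ± 0.43 (limma adjusted p = 0.780, or 0.215 with the replicate pairs as a block). It ran from -0.92 to -0.07 when single libraries or pairs were left out. The Krüppel-like factors had 9 of 17 genes as members, with a median change of -0.20, 6 of 9 with both cKO pairs below (43.8% over all members) and 0 above (8.36%). Klf13 had the tighter values (-0.43 ± 0.16, limma adjusted p = 0.400) and Klf15 the wider (-0.91 ± 0.74, or ± 0.18 and limma adjusted p = 0.0907 with the replicate block). The 21 of 39 members among mRNAs reported to be regulated by m6A had a median of -0.23, with 9 below, a share near the 43.8% of all members, and 0 above.

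Enrichment in WT at room temperature, measured in libraries that do not enter the contrast, was used to order the members. In the 587 members with the lowest RT enrichment the median change was -0.11, and in the 587 with the highest it was -0.27. The share with both cKO pairs below both WT cold pairs went from 31.3% to 57.1% between these bins, and the number lower at unadjusted p from 23 to 134. Over 5862 genes, which are not independent replicates, the correlation of RT enrichment with the change was -0.18 (Pearson) and -0.15 (Spearman), a weak relation. The median input difference went from 0.19 to 0.53 over the same bins, and its part in the trend was not tested. The longest gene models had both cKO pairs below in 52.1% of members and the shortest in 31.0%, while the correlation of length with the change was -0.05 (Pearson).

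**Figure D5:**
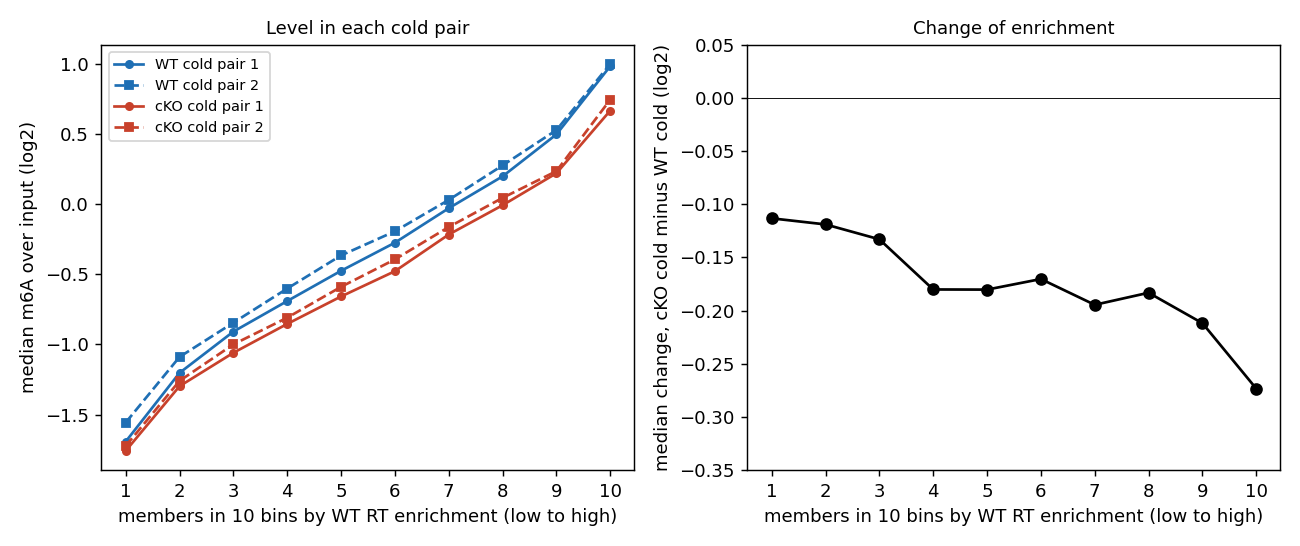
Members in 10 bins by WT RT enrichment, low to high. Left, the median log2 ratio of m6A over input in each cold pair (WT in blue, cKO in red); right, the median change. The change goes from -0.11 in the lowest bin to -0.27 in the highest, and both cKO lines lie under both WT lines in every bin.

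Members with high enrichment did not all have a low change. Chromatin and zinc finger regulators, a class with high enrichment, had 32 members with median ratios of 0.74 and 0.72 in WT cold against 0.61 and 0.63 in cKO cold. Their median change was -0.20, near that of all members, with 17 below (43.8% over all members) and 2 above. Arid1b, a subunit of the BAF remodelling complex, read 15.7 and 12.7 RPKM in the WT cold input and 29.6 and 32.0 in cKO cold. Its m6A libraries read 33.7 and 26.4 RPKM in WT cold against 39.4 and 45.3 in cKO cold, so both were higher (change -0.58 ± 0.21, limma adjusted p = 0.370). Hmgn5, among the 3 members with the highest RT enrichment, stood at 0.18 ± 0.21, and Prpf38b, also among them, at 0.51 ± 0.26. Prdx1, among the 3 with the lowest, stood at -0.28 ± 0.22.

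The remaining lists gave no member past the test. Circadian clock genes had 8 members, all with lower m6A values in the knockout (2166 of 5862 over all members). Their median change was -0.41, and 6 of 8 had both cKO pairs below (43.8% over all members). The distance of the list from the member median was -0.24 and ran from -0.40 to -0.06 when single libraries or pairs were left out. Bhlhe40 of this list stood at -1.19 ± 0.98, or ± 0.18 with the replicate block (limma adjusted p = 0.0773). Immediate early genes had 13 members, a median of -0.20 and 7 below (43.8% over all members), with Jund at -0.57 ± 0.36. Lysosome genes had 24 members, all with higher input in the knockout (4488 of 5862 over all members). Their median change was -0.22, with 14 below and 2 above, where all members gave 43.8% and 8.36%. Cytosolic ribosomal proteins, whose short mRNAs have many processed copies in the genome, had 77 members and a median of -0.05. Of these, 21 lay below and 13 above (43.8% and 8.36% over all members). Interferon-stimulated genes had 7 members at a median of -0.04, with 2 below and 2 above (43.8% and 8.36% over all members). Red blood cell genes had 5 members at -0.44, but the distance from the member median ran from -0.80 to 0.28 when single libraries or pairs were left out.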

How the data were processed

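The authors deposited a matrix of RPKM per gene for 16 libraries (input, m6A and ribosome footprints). HISAT2 and the mm10 build are named in the submitters' processing notes, and the counting tool and annotation are not given in the sources used here. The low RPKM values are whole multiples of 1 read, so reads were recovered for 17883 genes (100.0% whole, against 0 of 500 scrambled genes), with 3895031 to 8673393 reads per library.

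The test was limma 3.58.1 (R 4.3.3) on log2(RPKM + 1), in 12 libraries of 6 groups and on 13062 genes with 1 RPKM or more in 2 libraries. The contrast was m6A minus input in cKO cold minus the same in WT cold. A fold on this scale understates the change of low genes. Scripts were tested on simulated data. Same-numbered input and m6A libraries deviated together over 5862 members (correlations 0.338, 0.691 and 0.515), but not across genotypes (-0.023 and -0.034), so the numbers pair libraries within a condition; this comes from the data.

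Members and gene lists were chosen with earlier results of these data known. Genes named by rule are the 12 with the lowest p in each direction, Mettl3, Klf9, Pparg, Ucp1 (Prdm16 and Ppargc1a were under the floor), m6A factors, KLF genes, the highest and lowest change of a list, and the 3 members with the highest and lowest RT enrichment. The others, such as Abcd2, H6pd and list members with a low unadjusted p, were chosen after their values were seen. Coordinates are from RefSeq GRCm38.p6, matched by symbol. Alternatives covered scaling, pseudocount, floors, the libraries fitted, the replicate block, voom and leaving out libraries.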

Additional observations from a re-analysis of the deposited data

How the results depend on the processing

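The number of members called higher was 0 under all 27 alternatives, and the number called lower was 0 except for 1 (Rab9) without a filter on low values, 1 (Rab9) with a pseudocount of 5, and 4 without the first WT cold input (Btd, Lipt1, Dolk and Tnfaip8). Leaving out single libraries or pairs gave 0 to 4 calls lower, 39 to 78 members higher and 514 to 866 lower at unadjusted p. At that level, median-ratio scaling gave 167 higher and 341 lower with a median change of 0.0022, and quantile scaling 183 and 364 with -0.027. Both scalings bring the median change near 0 by design. Scaling without mitochondrial mRNAs, Lars2 and Gm20594 gave 90 higher and a median of -0.086. The 8 cold libraries alone gave 23 higher, and a floor of 10 RPKM, which leaves fewer members, 24 higher and 379 lower. With the replicate block of 6 pairs 0 members were called and 77 were higher and 1010 lower at unadjusted p, and this paired fit changed no call. The adipocyte list stood -0.42 from the member median with quantile scaling, and between -0.42 and -0.21 when libraries or pairs were left out. The sign turned for Ucp1 with a pseudocount of 5 (0.22). It also turned among the fits that left out libraries for Ucp1 (-1.80 to 1.35), Lep (-3.28 to 0.81), Hmgn5 (-0.0046 to 0.36) and Hbb-bt (-1.18 to 0.0095). Where a lone library was left, it was assumed to vary like the other groups. The cause of these shifts was not tested. The 2 pairs per genotype limit the precision, and the effect of depth was not tested.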
